A study of Homo sapiens with 9 samples.

Results

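The genes described here encode the core of the human microRNA pathway. They are DROSHA, DGCR8, XPO5, DICER1, TARBP2, the 4 Argonaute genes AGO1, AGO2, AGO3 and AGO4, and TNRC6A. They were chosen by gene symbol, and all 10 were found among the 32906 genes listed in each file. The study sequenced RNA from Huh7 cells, a human hepatocellular carcinoma line, to find genes that respond to loss of KDM4C, a histone lysine demethylase. The 3 groups were Scramble, Si-KDM4C#1 and Si-KDM4C#2, which received a control siRNA (Scramble) or 1 of a pair of siRNAs against KDM4C, with 3 libraries in each group, collected 48 hours after transfection. Every group, the control included, had therefore been transfected with a small RNA, and there was no untransfected group.

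MicroRNAs are cut from long primary transcripts in steps. In the nucleus the Microprocessor, formed by the endonuclease DROSHA and its RNA-binding partner DGCR8, releases a hairpin, which the transport receptor XPO5 carries to the cytoplasm. There DICER1, assisted by the double-stranded RNA-binding protein TARBP2, trims the hairpin to a short duplex. An Argonaute protein keeps a single strand of that duplex as its guide, and TNRC6A (GW182) links the Argonaute to the enzymes that deadenylate and decay the paired mRNA. Transfected siRNAs are loaded into the same Argonaute proteins, of which AGO2 is the one best known for slicing its targets.

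Expression is given as FPKM, fragments per kilobase of exon scaled to the mapped fragments of each library. Levels of different genes are set side by side on that scale, which rests on the exon length taken for each gene. The length that fitted the values was that of all annotated exons, 21157 bases for AGO3 and 7267 for AGO4. In Scramble AGO3 had 3062 fragments and AGO4 1747, although AGO3 was lower in FPKM. Which exons these cells use was not tested. The libraries held between 14597503 and 18058557 fragments by a fit to the deposited values. KDM4C stood at 4.88, 4.63 and 4.57 FPKM in the Scramble libraries, at 1.18, 1.10 and 1.13 under Si-KDM4C#1, and at 0.256, 0.349 and 0.256 under Si-KDM4C#2. It was thus at 24.3% of the Scramble mean under Si-KDM4C#1 and at 6.11% under Si-KDM4C#2. The cells are called Huh7 here because the labels do so, but the hepatocyte markers did not bear the label out. Of 12 such markers, ALB, APOB and TTR were not among the listed genes. The other 9, AFP and HNF4A included, were all under 1 FPKM in every library, and their sum was between 0.0347 and 0.389 FPKM. Of 4 fibroblast markers, COL1A1 and LUM were expressed and COL1A2 and DCN were not, and the leukocyte and endothelial markers were under 1 FPKM. The summed fibroblast markers were 21.2 to 22.4 FPKM in Scramble, 18.3 to 19.8 under Si-KDM4C#1 and 23.3 to 24.4 under Si-KDM4C#2, and their part in the results below was not tested.

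All 10 transcripts were expressed. In the Scramble libraries XPO5 was the most abundant, at 21.2 ± 0.708 FPKM (SD, n = 3), and AGO2 followed at 19.8 ± 1.50 FPKM, and the libraries of these 2 genes overlapped. DICER1 (12.9 ± 1.07 FPKM), DROSHA (12.8 ± 0.991 FPKM) and TNRC6A (11.7 ± 1.39 FPKM) formed a middle group whose neighbours overlapped too. DGCR8 (7.65 ± 0.335 FPKM), TARBP2 (7.48 ± 0.807 FPKM) and AGO1 (6.32 ± 0.550 FPKM) came next, each overlapping its neighbour. AGO4 (4.99 ± 0.0590 FPKM) and AGO3 (3.02 ± 0.246 FPKM) were the lowest and stood apart from each other. The order changed under Si-KDM4C#1, where DROSHA rose to the second place and DICER1 dropped to the eighth. Under Si-KDM4C#2 TNRC6A dropped from the fifth to the seventh place and DICER1 took the fourth.

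**Figure D1:**
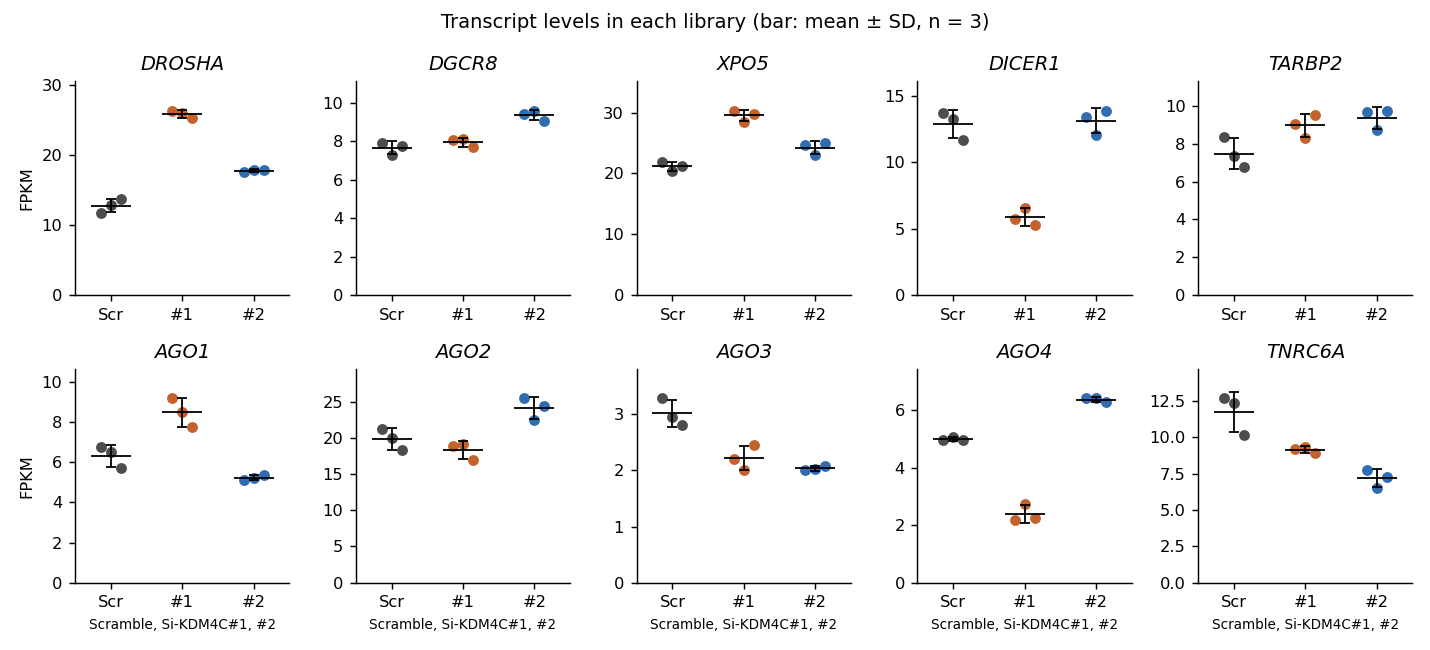
FPKM of each of the 10 genes in every library, in 1 panel per gene with its own axis from 0. Points are libraries of Scramble (Scr), Si-KDM4C#1 (#1) and Si-KDM4C#2 (#2), and bars give the mean and SD of 3 libraries. DICER1 and AGO4 were lowest under Si-KDM4C#1, where DROSHA was highest, and TNRC6A was lowest under Si-KDM4C#2.

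Across all genes the siRNAs moved many transcripts, and this is the background for the 10 genes. Differences were taken between group means of log2(FPKM + 1) and tested with limma, with Benjamini-Hochberg adjustment over the 14363 genes whose mean reached 1 FPKM in at least 1 group. A gene was called at an adjusted p under 0.05. Under Si-KDM4C#1 4 of the 10 genes rose, where 31.7% of all tested genes did, and 4 fell, where 33.9% did. Under Si-KDM4C#2 6 rose against a background of 34.4%, and 3 fell against 25.0%. Higher calls were 57.9% of all calls in this comparison and 51.3% under quantile normalization, where the rises of AGO2 and XPO5 were not called. After GC adjustment the rise of TARBP2 and the fall of AGO1 were not called. A 2-fold change, the study's second criterion, was met by DICER1 under Si-KDM4C#1, where 8.87% of all genes met it. That count of 1 depended on the scale, since mean FPKM was 2.02 times that of Scramble for DROSHA and 48.0% of it for AGO4. It was 3 (DICER1, DROSHA and AGO4) with a pseudocount of 0.1 and with voom on recovered fragments, where their log2 differences were -1.07, 1.08 and -1.01. It was 0 without Scramble replicate 1, Scramble replicate 2 or Si-KDM4C#1 replicate 3, and 2 without Scramble replicate 3. Under median centring or GC adjustment it was still 1, but the gene was DROSHA in place of DICER1. Under Si-KDM4C#2 the count was 0, also with voom, where 4.89% of all genes met the criterion. The median absolute log2 difference of the 10 genes was 0.35 under Si-KDM4C#1 and 0.28 under Si-KDM4C#2, beside 0.37 and 0.30 over all tested genes. By that median the 10 genes moved about as far as other genes, and what follows describes them singly. Both comparisons share the Scramble libraries.

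The transcripts that differed most were DICER1, AGO4 and DROSHA. To show where these genes start, the 300 bases around the RefSeq transcription start of each, 250 before it and 50 after, are printed 5′ to 3′ on the gene's strand from GRCh38.p14. They lie at chr14:95157480-95157779 (minus strand) for DICER1, chr1:35807766-35808065 (plus strand) for AGO4 and chr5:31532044-31532343 (minus strand) for DROSHA. Capitals mark GC boxes (GGGCGG) and CCAAT boxes (CCAAT) on either strand.
DICER1: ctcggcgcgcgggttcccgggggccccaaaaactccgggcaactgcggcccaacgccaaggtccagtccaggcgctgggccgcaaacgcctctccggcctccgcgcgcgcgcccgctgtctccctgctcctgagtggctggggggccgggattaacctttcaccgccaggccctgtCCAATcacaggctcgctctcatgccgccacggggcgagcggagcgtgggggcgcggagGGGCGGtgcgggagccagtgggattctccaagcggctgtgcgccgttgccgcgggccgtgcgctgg
AGO4: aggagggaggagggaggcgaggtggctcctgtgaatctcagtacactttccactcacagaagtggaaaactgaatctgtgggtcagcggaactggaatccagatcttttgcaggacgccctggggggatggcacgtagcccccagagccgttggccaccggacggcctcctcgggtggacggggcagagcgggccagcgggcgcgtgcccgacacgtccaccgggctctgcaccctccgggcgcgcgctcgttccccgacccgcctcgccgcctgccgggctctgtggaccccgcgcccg
DROSHA: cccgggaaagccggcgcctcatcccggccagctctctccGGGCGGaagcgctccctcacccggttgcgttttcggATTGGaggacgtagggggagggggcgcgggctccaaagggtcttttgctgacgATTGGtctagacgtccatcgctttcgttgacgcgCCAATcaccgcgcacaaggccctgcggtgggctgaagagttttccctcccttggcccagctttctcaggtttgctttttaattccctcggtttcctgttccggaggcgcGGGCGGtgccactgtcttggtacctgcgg
The 3 promoters hold 37, 29 and 28 CpG dinucleotides in that order, above the median of 14 over 35116 RefSeq promoters of the same length. DICER1 has 1 GC box and 1 CCAAT box, DROSHA has 2 GC boxes and 3 CCAAT boxes, and AGO4 has neither. A GC box is present in 45.0% and a CCAAT box in 34.6% of all promoters. The TATA box (TATAAA, in 11.5% of all promoters), the E-box (CACGTG, 7.26%), the ETS motif (CCGGAAG, 10.3%) and the CRE (TGACGTCA, 1.85%) were not found in these windows on either strand. These matches are descriptions of the sequence, and factor binding was not measured.

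DROSHA, the nuclease that makes the first cut, rose with both siRNAs. It stood at 11.8, 12.9 and 13.8 FPKM in Scramble, at 26.4, 26.0 and 25.3 FPKM under Si-KDM4C#1, and at 17.5, 17.9 and 17.9 FPKM under Si-KDM4C#2. The 3 groups did not overlap. The mean under Si-KDM4C#1 was 2.02 times that of Scramble, a log2 difference of 0.96 ± 0.05 (SE, limma adjusted p = 2.56e-07). On the log2(FPKM + 1) scale this fell just short of the 2-fold criterion. In bulk RNA, more cells that express a gene and more RNA per cell cannot be told apart. The mean under Si-KDM4C#2 was 1.39 times that of Scramble (log2 difference 0.45 ± 0.05, limma adjusted p = 5.87e-05). The siRNAs also differed from each other, by -0.52 ± 0.05 for Si-KDM4C#2 minus Si-KDM4C#1 (limma adjusted p = 1.86e-05). The counts behind these values were 4811 fragments over the Scramble libraries, 9816 under Si-KDM4C#1 and 6663 under Si-KDM4C#2.

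DGCR8, the partner that holds the hairpin for DROSHA, overlapped Scramble under Si-KDM4C#1. Its levels were 7.93, 7.28 and 7.75 FPKM in Scramble and 8.08, 8.10 and 7.67 FPKM under Si-KDM4C#1. The log2 difference was 0.05, with a 95% interval of -0.06 to 0.15 (limma adjusted p = 0.378). It was called under median centring, at 0.12 (limma adjusted p = 0.0300), and turned to -0.06 under GC adjustment (limma adjusted p = 0.285). Under Si-KDM4C#2 the libraries stood at 9.41, 9.59 and 9.05 FPKM, above every Scramble library. That rise was 1.22-fold (log2 difference 0.26 ± 0.05, limma adjusted p = 0.00104). The ratio of DROSHA to DGCR8 transcripts was 1.68 ± 0.165 (SD, n = 3) in Scramble, 3.26 ± 0.0422 under Si-KDM4C#1 and 1.90 ± 0.0622 under Si-KDM4C#2. The strand setting is not given in the sources used here, and DGCR8 overlaps TRMT2A on the other strand. Reads in shared sequence may therefore not have been told apart. TRMT2A rose by 0.72 under Si-KDM4C#1 and by 0.43 under Si-KDM4C#2 on the same scale (limma adjusted p = 8.21e-06 and 0.000366), and its part in the DGCR8 values was not tested.

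XPO5, the export receptor for the hairpin, rose with both siRNAs. It measured 21.8, 20.4 and 21.2 FPKM in Scramble, 30.3, 28.5 and 29.8 FPKM under Si-KDM4C#1, and 24.7, 23.0 and 25.0 FPKM under Si-KDM4C#2. No group overlapped another. The log2 difference from Scramble was 0.46 ± 0.04 under Si-KDM4C#1 (limma adjusted p = 1.21e-05) and 0.19 ± 0.04 under Si-KDM4C#2 (limma adjusted p = 0.00529). The rise under Si-KDM4C#2 was 1.15-fold, and its call was lost under quantile normalization (log2 difference 0.05, limma adjusted p = 0.341). XPO5 overlaps POLR1C on the other strand, which differed from Scramble by -0.01 and -0.02 with the 2 siRNAs (limma adjusted p = 0.871 and 0.722).

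DICER1, which makes the cytoplasmic cut, fell under Si-KDM4C#1. Its levels were 13.7, 13.2 and 11.7 FPKM in Scramble, 5.77, 6.58 and 5.25 FPKM under Si-KDM4C#1, and 13.5, 12.1 and 13.9 FPKM under Si-KDM4C#2. Every library of Si-KDM4C#1 was below every other library, whereas Scramble and Si-KDM4C#2 overlapped. Under Si-KDM4C#1 the mean was at 45.5% of Scramble, a log2 difference of -1.02 ± 0.09 (SE, limma adjusted p = 4.34e-06). Under Si-KDM4C#2 the difference was 0.03, with a 95% interval of -0.16 to 0.22 (limma adjusted p = 0.797), a range that does not hold the fall seen under Si-KDM4C#1. The direct difference between the siRNAs was 1.05 ± 0.09 (limma adjusted p = 4.55e-06). The fall under Si-KDM4C#1 was -0.79 after GC adjustment and -0.95 to -1.09 with any library left out, and DICER1 stayed called. It dropped inside the 2-fold limit after GC adjustment and under median centring. The same held without Scramble replicate 1, Scramble replicate 2 or Si-KDM4C#1 replicate 3. Over the group, 7600 fragments were counted for DICER1 in Scramble, 3499 under Si-KDM4C#1 and 7794 under Si-KDM4C#2. DICER1-AS1, on the opposite strand, averaged 0.862 FPKM in Scramble and 0.708 FPKM under Si-KDM4C#1.

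The nuclear and the cytoplasmic nuclease therefore moved apart under Si-KDM4C#1. The ratio of DROSHA to DICER1 was 0.859, 0.970 and 1.18 in the Scramble libraries, 4.58, 3.95 and 4.81 under Si-KDM4C#1, and 1.30, 1.49 and 1.29 under Si-KDM4C#2. The ratio of XPO5 to DICER1 went from 1.65 ± 0.146 (SD, n = 3) in Scramble to 5.09 ± 0.685 under Si-KDM4C#1 and 1.85 ± 0.0535 under Si-KDM4C#2. These ratios are of transcripts and are given as a description, since their parts were tested above.

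**Figure D2:**
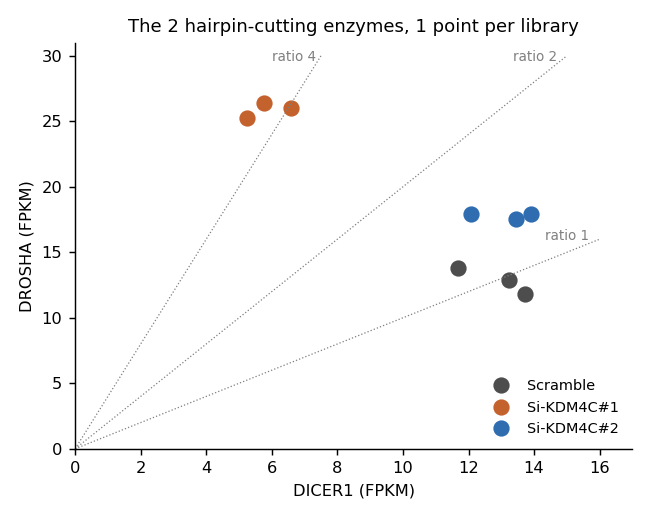
DROSHA against DICER1, both in FPKM, with 1 point per library and dotted lines at DROSHA to DICER1 ratios of 1, 2 and 4. The Si-KDM4C#1 libraries lie near the line of ratio 4 (3.95 to 4.81), away from the Scramble libraries (0.859 to 1.18) and the Si-KDM4C#2 libraries (1.29 to 1.49).

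TARBP2, the partner of DICER1 in loading, was slightly higher with both siRNAs. It stood at 8.36, 7.33 and 6.76 FPKM in Scramble, at 9.06, 8.32 and 9.53 FPKM under Si-KDM4C#1, and at 9.67, 8.72 and 9.76 FPKM under Si-KDM4C#2. The Si-KDM4C#1 libraries overlapped those of Scramble and the Si-KDM4C#2 libraries were above them. The log2 difference was 0.24 ± 0.08 under Si-KDM4C#1 (limma adjusted p = 0.0229) and 0.29 ± 0.08 under Si-KDM4C#2 (limma adjusted p = 0.00889). Neither call held after adjustment for GC content, where the differences were -0.00129 and 0.09 (limma adjusted p = 0.988 and 0.280). The Si-KDM4C#1 call was also lost without Scramble replicate 2 or 3, or without Si-KDM4C#1 replicate 1 or 3 (limma adjusted p = 0.0580 to 0.0830). With no filter on expression it was lost as well (limma adjusted p = 0.0574). TARBP2 has the highest transcript GC content of the 10 genes, at 60.8%, and the median over tested genes is 48.2%. The antisense gene AC023509.4, which overlaps it, averaged 1.30 FPKM in Scramble, 0.883 FPKM under Si-KDM4C#1 and 1.88 FPKM under Si-KDM4C#2. PRKRA (PACT), the other known partner of DICER1, was called only under Si-KDM4C#2 (log2 difference 0.16 ± 0.05, limma adjusted p = 0.0221) and stood at 0.10 under Si-KDM4C#1 (limma adjusted p = 0.105). The difference between the siRNAs was 0.06 for PRKRA (limma adjusted p = 0.351).

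The Argonaute genes did not move as a family. AGO4, AGO1 and AGO3 lie side by side on the plus strand of chromosome 1 in GRCh38, at chr1:35808172-35857890, chr1:35869808-35930528 and chr1:35930718-36072500, with 11917 bases between the former pair and 189 between the latter. AGO2 is on another chromosome. AGO4 and AGO1 went in opposite directions with each siRNA, and AGO3 was lower with both.

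AGO4 stood at 4.97, 5.06 and 4.95 FPKM in Scramble, at 2.19, 2.75 and 2.24 FPKM under Si-KDM4C#1, and at 6.41, 6.42 and 6.28 FPKM under Si-KDM4C#2. The groups were fully separated, and Si-KDM4C#1 was lowest and Si-KDM4C#2 highest. AGO4 fell to 48.0% of Scramble under Si-KDM4C#1 (log2 difference -0.82 ± 0.07, limma adjusted p = 3.20e-06) and rose 1.27-fold under Si-KDM4C#2 (log2 difference 0.30 ± 0.07, limma adjusted p = 0.00343). The direct difference between the siRNAs was 1.12 ± 0.07 (limma adjusted p = 5.70e-07). It rested on 842 fragments under Si-KDM4C#1 and 2226 under Si-KDM4C#2.

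AGO1 moved the other way. Its libraries measured 6.76, 6.49 and 5.70 FPKM in Scramble, 9.19, 8.49 and 7.78 FPKM under Si-KDM4C#1, and 5.11, 5.21 and 5.36 FPKM under Si-KDM4C#2. Again the 3 groups were separated, and here Si-KDM4C#1 was highest. The log2 difference from Scramble was 0.37 ± 0.07 under Si-KDM4C#1 (limma adjusted p = 0.00111) and -0.23 ± 0.07 under Si-KDM4C#2 (limma adjusted p = 0.0188). The fall under Si-KDM4C#2 lost its call without Scramble replicate 1 or 2, without Si-KDM4C#2 replicate 1, and after GC adjustment (limma adjusted p = 0.0563 to 0.0757). Between the siRNAs AGO1 differed by -0.60 ± 0.07 (limma adjusted p = 5.30e-05). The ratio of AGO1 to AGO4 was 1.26 ± 0.106 (SD, n = 3) in Scramble, 3.58 ± 0.562 under Si-KDM4C#1 and 0.821 ± 0.0299 under Si-KDM4C#2.

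AGO3 was lower with both siRNAs. It measured 3.29, 2.95 and 2.81 FPKM in Scramble, 2.21, 2.01 and 2.44 FPKM under Si-KDM4C#1, and 2.01, 2.02 and 2.08 FPKM under Si-KDM4C#2. Every knockdown library was below every Scramble library, and the knockdown groups overlapped. The log2 difference was -0.32 ± 0.08 under Si-KDM4C#1 (limma adjusted p = 0.00410) and -0.40 ± 0.08 under Si-KDM4C#2 (limma adjusted p = 0.00128). The difference between the siRNAs was -0.08, with a 95% interval of -0.25 to 0.09 (limma adjusted p = 0.362). It was called in 4 alternatives, at -0.21 with quantile normalization, -0.20 with median centring, and -0.25 with voom, without and with the replicate block (limma adjusted p = 0.0307, 0.0450, 0.00512 and 0.00388). AGO3 has the lowest transcript GC content of the 10 (38.9%), and the Si-KDM4C#1 call was lost after GC adjustment (log2 difference -0.09, limma adjusted p = 0.384).

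AGO2, the most abundant Argonaute, rose under Si-KDM4C#2. Its libraries stood at 21.3, 19.9 and 18.3 FPKM in Scramble, at 18.9, 19.2 and 16.9 FPKM under Si-KDM4C#1, and at 25.5, 22.5 and 24.3 FPKM under Si-KDM4C#2. Scramble and Si-KDM4C#1 overlapped, and every Si-KDM4C#2 library was above both. The log2 difference was -0.11 under Si-KDM4C#1 (95% interval -0.27 to 0.05, limma adjusted p = 0.195) and 0.27 ± 0.07 under Si-KDM4C#2 (limma adjusted p = 0.00775). Between the siRNAs it was 0.38 ± 0.07 (limma adjusted p = 0.00101). Quantile normalization changed both comparisons with Scramble, to -0.25 under Si-KDM4C#1, now called, and to 0.15 under Si-KDM4C#2, no longer called (limma adjusted p = 0.00867 and 0.0787). Over the 9 libraries the tested genes outside the 10 whose log2(FPKM + 1) was most correlated with that of AGO2 were AJM1 (Pearson r = 0.987), ZNF446 (0.983) and POU2F1 (0.982). They are the extremes of all tested genes in libraries that share 3 groups, and are given as a description.

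Summed over AGO1 to AGO4, Argonaute transcripts came to 34.2 ± 2.29 FPKM (SD, n = 3) in Scramble, 31.4 ± 1.78 FPKM under Si-KDM4C#1 and 37.7 ± 1.45 FPKM under Si-KDM4C#2. AGO2 made up 58.0 ± 0.537% in Scramble, 58.3 ± 0.788% under Si-KDM4C#1 and 63.9 ± 1.54% under Si-KDM4C#2. The AGO1 share was 18.5 ± 0.457% in Scramble, 27.0 ± 1.14% under Si-KDM4C#1 and 13.9 ± 0.687% under Si-KDM4C#2. AGO4 made up 14.7 ± 0.962%, 7.63 ± 0.869% and 16.9 ± 0.745% in the same order, and AGO3 8.83 ± 0.238%, 7.11 ± 1.09% and 5.40 ± 0.230%. These shares are of transcripts, and protein was not measured by these libraries.

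**Figure D3:**
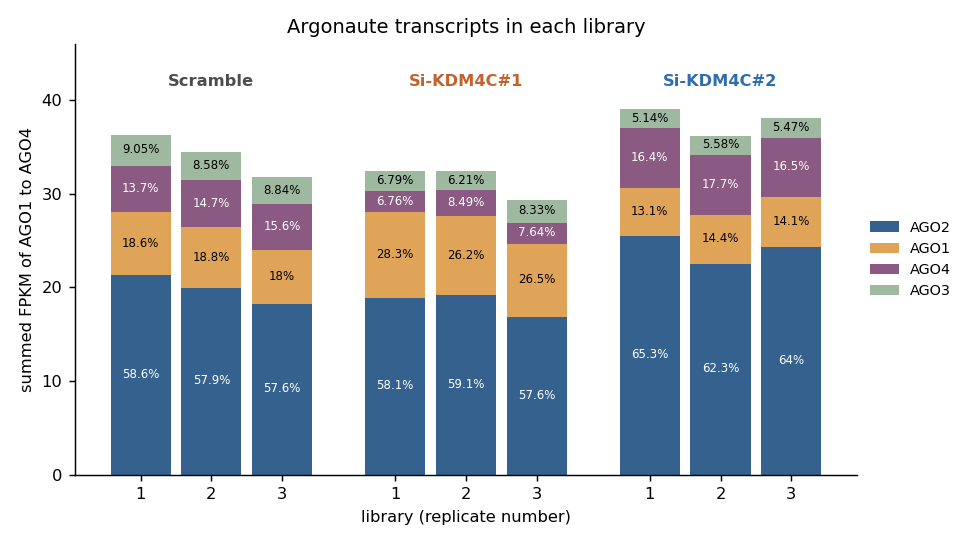
Stacked FPKM of AGO2, AGO1, AGO4 and AGO3 in each of the 9 libraries, with the share of each gene printed in its segment. The AGO1 segment was 26.2% to 28.3% of the sum under Si-KDM4C#1 and 13.1% to 14.4% under Si-KDM4C#2, and the AGO4 segment 6.76% to 8.49% and 16.4% to 17.7%.

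TNRC6A, the GW182 protein that recruits the deadenylases, fell with both siRNAs. It stood at 12.7, 12.4 and 10.1 FPKM in Scramble, at 9.22, 9.34 and 8.93 FPKM under Si-KDM4C#1, and at 7.76, 6.54 and 7.27 FPKM under Si-KDM4C#2. The groups were separated, in falling order from Scramble to Si-KDM4C#1 to Si-KDM4C#2. The log2 difference from Scramble was -0.32 ± 0.08 under Si-KDM4C#1 (limma adjusted p = 0.00719) and -0.63 ± 0.08 under Si-KDM4C#2 (limma adjusted p = 0.000135), and between the siRNAs it was -0.31 ± 0.08 (limma adjusted p = 0.00841). Of its paralogs, TNRC6B fell under Si-KDM4C#1 alone, and TNRC6C was not tested. TNRC6B stood at 3.72, 3.85 and 3.15 FPKM in Scramble, 2.50, 2.38 and 1.87 FPKM under Si-KDM4C#1 and 3.42, 3.29 and 3.75 FPKM under Si-KDM4C#2. It fell under Si-KDM4C#1 (log2 difference -0.49 ± 0.09, limma adjusted p = 0.00116) and stood at -0.02 under Si-KDM4C#2 (limma adjusted p = 0.836). TNRC6C was under 1 FPKM in every library, at 0.401 ± 0.101 FPKM (SD, n = 3) in Scramble, 0.0861 ± 0.0118 under Si-KDM4C#1 and 0.373 ± 0.0319 under Si-KDM4C#2, and was not among the tested genes.

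Set directly against each other, Si-KDM4C#2 was higher than Si-KDM4C#1 for 4 of the 10 genes (DICER1, AGO4, AGO2 and DGCR8) and lower for 4 (AGO1, DROSHA, XPO5 and TNRC6A). Over all tested genes 35.9% were higher and 26.5% lower. Higher calls were 57.5% of all calls in this comparison and 45.0% after centring each library on its median, which moved the median difference over all genes from 0.08 to -0.03. DICER1 and AGO4 were past a 2-fold change, as were 6.91% of all genes. This count of 2 fell to 0 under quantile normalization and to 1 under median centring, under GC adjustment or without Si-KDM4C#1 replicate 3. AGO3 and TARBP2 were not called, and TARBP2 differed by 0.06 (95% interval -0.12 to 0.23, limma adjusted p = 0.531). DGCR8 lost its call under median centring (log2 difference 0.10, limma adjusted p = 0.0701) and with voom, without and with the replicate block (0.11 in both, limma adjusted p = 0.135 and 0.126). AGO3 gained a call in the 4 alternatives given above.

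**Figure D4:**
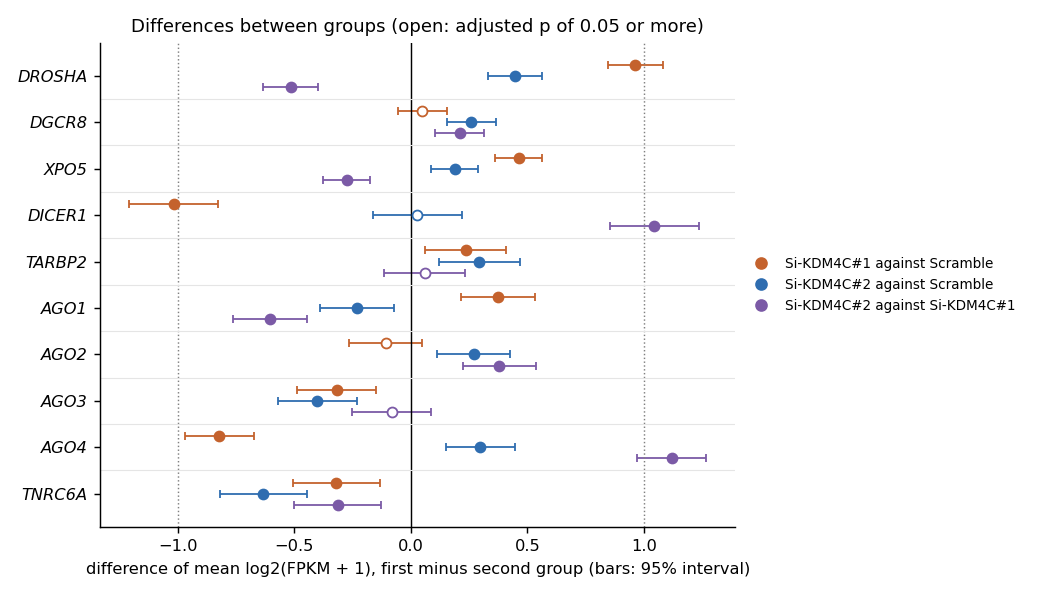
Difference of mean log2(FPKM + 1) for each gene in 3 comparisons, first named group minus second, with 95% intervals from limma, and open points where the adjusted p was 0.05 or more. Dotted lines mark a 2-fold change. DICER1 and AGO4 lie far left under Si-KDM4C#1 (-1.02 and -0.82) and far right in the comparison of the siRNAs (1.05 and 1.12).

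With the 6 knockdown libraries pooled, 4 of the 10 genes were higher than Scramble (DROSHA, XPO5, TARBP2 and DGCR8) and 4 were lower (DICER1, TNRC6A, AGO3 and AGO4). The shares over all tested genes were 32.6% and 30.8%, and 4.14% were past a 2-fold change, which none of the 10 was. After GC adjustment 5 of the 10 were called. The calls of AGO3, DGCR8 and TARBP2 were lost there (limma adjusted p = 0.0740, 0.162 and 0.536). An exact permutation test over the 84 ways to split the 9 libraries, whose smallest two-sided p is 0.0119, gave that value for AGO3 and TNRC6A, and 0.0238 for DROSHA, XPO5 and TARBP2. It gave 0.310 for DICER1, 0.464 for AGO4 and 0.0714 for DGCR8. For DICER1 and AGO4 the pooled fall came from Si-KDM4C#1 alone, as the library values above show. Between groups of 3, the same test cannot go below 0.1.

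The other genes of the pathway were counted in 6 lists. Beside them stand the shares over all tested genes, of which 31.7% rose and 33.9% fell under Si-KDM4C#1 and 34.4% rose and 25.0% fell under Si-KDM4C#2, with medians of -0.03 and 0.06. Genes named from a list, unless said otherwise, were picked for a call over both siRNAs with all knockdown libraries on 1 side of Scramble. Their separation from Scramble was therefore set by that choice. The chaperones and loading factors were mostly higher. Of 12 tested, 7 rose and 1 fell under Si-KDM4C#1, and 10 rose and 1 fell under Si-KDM4C#2, with median log2 differences of 0.28 and 0.35. The rises were 58.3% and 83.3% of the list, beside 31.7% and 34.4% of all genes. FKBP4, an HSP90 co-chaperone, stood at 25.2, 25.3 and 26.1 FPKM in Scramble, 43.8, 43.8 and 45.3 FPKM under Si-KDM4C#1 and 49.9, 49.2 and 51.2 FPKM under Si-KDM4C#2. The log2 differences were 0.77 ± 0.03 and 0.95 ± 0.03 (limma adjusted p = 7.08e-08 and 5.25e-08). FKBP5, a related co-chaperone, rose 1.52-fold and 2.73-fold. CDC37, HSP90AA1 and HSP90AB1, named here after their values were seen, differed between the siRNAs. CDC37, which brings kinases to HSP90, stood at 40.7 to 43.3 FPKM in Scramble, 86.4 to 97.0 FPKM under Si-KDM4C#1 and 59.4 to 64.1 FPKM under Si-KDM4C#2. HSP90AA1, the inducible HSP90, stood at 133 to 153 FPKM in Scramble, 135 to 152 FPKM under Si-KDM4C#1 and 278 to 286 FPKM under Si-KDM4C#2. HSP90AB1, the most abundant transcript of this list, stood at 652 to 707 FPKM in Scramble. It was lower under Si-KDM4C#1, at 478 to 525 FPKM, and stood at 741 to 756 FPKM under Si-KDM4C#2.

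The silencing effectors, which act downstream of TNRC6A to shorten, decap and degrade the mRNA, were divided. Of 26 tested, 8 rose and 15 fell under Si-KDM4C#1 and 6 rose and 8 fell under Si-KDM4C#2, with median log2 differences of -0.17 and -0.05. The falls were 57.7% of the list under Si-KDM4C#1, beside 33.9% of all genes, and 30.8% under Si-KDM4C#2, beside 25.0%. The rises were 30.8% and 23.1%, beside 31.7% and 34.4%. CNOT8, a deadenylase of the CCR4-NOT complex, fell to 53.3% and 60.7% of Scramble (log2 differences -0.87 ± 0.04 and -0.70 ± 0.04, limma adjusted p = 8.92e-08 and 6.30e-07). XRN1, the exonuclease that degrades decapped mRNA, stood at 7.24, 7.25 and 6.58 FPKM in Scramble, 3.31, 3.37 and 2.55 FPKM under Si-KDM4C#1 and 5.16, 5.34 and 4.99 FPKM under Si-KDM4C#2. Its libraries under Si-KDM4C#1 were the lowest and those of Scramble the highest. By contrast EDC3, an enhancer of decapping, rose 1.93-fold and 1.89-fold. DCP2, the decapping enzyme, rose 1.20-fold under Si-KDM4C#1 and 2.86-fold under Si-KDM4C#2 (log2 differences 0.20 ± 0.07 and 1.25 ± 0.07, limma adjusted p = 0.0291 and 5.73e-07).

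Among the regulators of Argonaute activity and turnover, 6 of 18 tested rose and 8 fell under Si-KDM4C#1, and 7 rose and 7 fell under Si-KDM4C#2, with medians of -0.09 and 0.00235. These were rises of 33.3% and 38.9%, beside 31.7% and 34.4% of all genes, and falls of 44.4% and 38.9%, beside 33.9% and 25.0%. The named genes of this list moved the same way with both siRNAs because the rule that named them required it. Others did not, and QKI, an RNA-binding protein named here after its values were seen, averaged 4.39 FPKM in Scramble, 3.22 FPKM under Si-KDM4C#1 and 5.41 FPKM under Si-KDM4C#2. ZSWIM8, the receptor of the ubiquitin ligase for Argonautes engaged in target-directed microRNA decay, stood at 13.8, 12.4 and 11.3 FPKM in Scramble, 6.86, 6.79 and 6.49 FPKM under Si-KDM4C#1 and 6.55, 5.44 and 5.91 FPKM under Si-KDM4C#2. That fall was -0.81 ± 0.08 and -0.96 ± 0.08 in log2 (limma adjusted p = 1.12e-05 and 5.68e-06). ANKRD52, a subunit of the phosphatase that resets Argonaute phosphorylation, rose from 22.6, 20.7 and 18.7 FPKM to 34.3, 34.9 and 32.3 FPKM under Si-KDM4C#1 and 56.7, 49.8 and 53.7 FPKM under Si-KDM4C#2. TRIM65, a ubiquitin ligase known to act on TNRC6 proteins, rose 1.45-fold and 1.78-fold. RBM4, an RNA-binding protein, fell to 63.6% and 58.7% of Scramble at levels under 2 FPKM (1.82 FPKM in Scramble).

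The hairpin processing and export factors gave 3 rises and 7 falls among 13 tested genes under Si-KDM4C#1, and 5 rises and 3 falls under Si-KDM4C#2, with medians of -0.16 and 0.00403. The rises were 23.1% and 38.5% of the list, beside 31.7% and 34.4% of all genes, and the falls 53.8% and 23.1%, beside 33.9% and 25.0%. RAN, the GTPase that XPO5 binds with its hairpin, rose 1.45-fold and 1.35-fold (log2 differences 0.53 ± 0.05 and 0.44 ± 0.05, limma adjusted p = 1.02e-05 and 5.84e-05), in the same direction as XPO5. ERH, a small cofactor of the Microprocessor, rose 1.11-fold and 1.29-fold. ZCCHC6 (TUT7), which adds uridines to precursor hairpins, fell to 60.4% and 75.9% of Scramble. NCBP1, the large cap-binding subunit, fell under Si-KDM4C#2 (log2 difference -0.19 ± 0.04, limma adjusted p = 0.00299) and stood at -0.08 under Si-KDM4C#1 (limma adjusted p = 0.112). Of the PIWI and small RNA uptake genes only 2 reached 1 FPKM. Both fell under Si-KDM4C#1, and 1 rose and 1 fell under Si-KDM4C#2. Of these, SIDT2, a transmembrane protein of the SID family, fell with both siRNAs (log2 differences -0.32 ± 0.06 and -0.42 ± 0.06, limma adjusted p = 0.00136 and 0.000308).

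**Figure D5:**
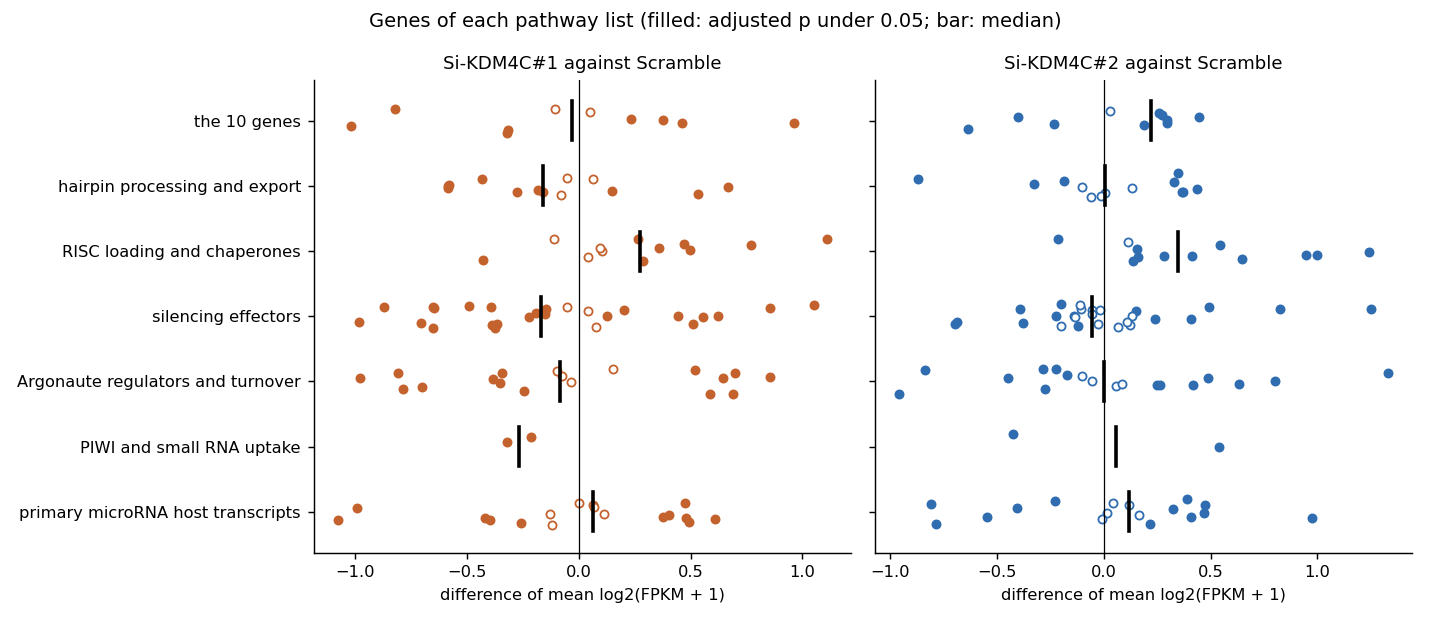
Difference of mean log2(FPKM + 1) from Scramble for each tested gene of the 10 and of the 6 pathway lists, under Si-KDM4C#1 on the left and Si-KDM4C#2 on the right. Filled points have an adjusted p under 0.05 and bars mark medians. The loading and chaperone list lies furthest to the right in both panels (medians 0.28 and 0.35).

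The substrates of the pathway were represented by transcripts that carry microRNA hairpins. Of 17 tested, 6 rose and 5 fell under Si-KDM4C#1, and 7 rose and 5 fell under Si-KDM4C#2, with medians of 0.06 and 0.12. The rises, 35.3% and 41.2%, and the falls, 29.4% in both, lay near the shares of all genes (31.7% and 34.4%, and 33.9% and 25.0%). The microRNAs whose host transcripts are described next, and a microRNA lying within DGCR8 itself, are printed from RefSeq (GRCh38.p14), 5′ to 3′, with the seed (bases 2 to 8) in capitals, as the cargo these genes would cut and load. The mature microRNAs were not measured by these libraries.
hsa-miR-17-5p: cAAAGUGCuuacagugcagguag
hsa-miR-20a-5p: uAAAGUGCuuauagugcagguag
hsa-miR-18a-5p: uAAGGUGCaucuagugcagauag
hsa-miR-19a-3p: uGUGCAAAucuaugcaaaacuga
hsa-miR-19b-3p: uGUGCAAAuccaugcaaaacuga
hsa-miR-92a-3p: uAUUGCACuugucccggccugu
hsa-miR-675-5p: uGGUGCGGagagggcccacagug
hsa-miR-22-3p: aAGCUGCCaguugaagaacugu
hsa-miR-148b-3p: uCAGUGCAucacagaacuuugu
hsa-miR-1306-5p: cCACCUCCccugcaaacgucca
Here miR-17-5p and miR-20a-5p share 1 seed and miR-19a-3p and miR-19b-3p share another, and the remaining seeds are each different.

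MIR17HG on chromosome 13, which carries the miR-17, miR-18a, miR-19a, miR-20a, miR-19b and miR-92a hairpins, rose with both siRNAs from a low level. It stood at 0.891, 1.08 and 1.00 FPKM in Scramble, 1.74, 1.35 and 1.68 FPKM under Si-KDM4C#1 and 3.40, 2.89 and 2.48 FPKM under Si-KDM4C#2. The 3 groups did not overlap. The log2 differences were 0.38 ± 0.11 and 0.97 ± 0.11 (limma adjusted p = 0.0104 and 3.78e-05). COPZ1, whose intron holds miR-148b, rose 1.40-fold and 1.34-fold. H19, the imprinted RNA that carries miR-675, stood at 168, 131 and 125 FPKM in Scramble. It stood at 56.7, 74.2 and 68.1 FPKM under Si-KDM4C#1 and at 99.8, 94.7 and 93.3 FPKM under Si-KDM4C#2. Every knockdown library of H19 was below every Scramble library, as the rule that named H19 required. Its log2 differences were -1.08 ± 0.12 and -0.54 ± 0.12 (limma adjusted p = 2.89e-05 and 0.00315). MIR22HG, the host of miR-22, fell under Si-KDM4C#2 to 50.5% of Scramble (log2 difference -0.81 ± 0.07, limma adjusted p = 8.29e-06) and stood at -0.13 under Si-KDM4C#1 (limma adjusted p = 0.133). DGCR8, whose transcript holds miR-1306, is described above.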

How the data were processed

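RNA-seq of 9 Huh7 libraries, 3 each of Scramble, Si-KDM4C#1 and Si-KDM4C#2, was used, with groups and replicate numbers taken from the sample labels. Libraries were made with a NEBNext Ultra kit and sequenced in pairs. The authors deposited 1 FPKM value per gene and library. The submitters' processing notes name HISAT2 2.1.0, StringTie 1.3.3b, featureCounts, DESeq 1.28.0, FastQC 0.11.5 and GRCh38 with no role, and the annotation and strand setting are not given in the sources used here.

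Values were taken to log2(FPKM + 1), and genes averaging 1 FPKM or more in any group were fitted together with limma 3.58.1 (R 4.3.3, empirical Bayes with a mean trend), tested on simulated data first. That simulation planted changes in 200 genes, all larger than any difference of the 10 genes, so it does not bear on small differences. The study's methods say in general that experiments were repeated independently, but no label ties the libraries of a group to separate cultures, so the p-values measure the spread between these libraries, which may be technical. All tests were two-sided. With GENCODE 29 exon lengths, 97.37% to 97.52% of values above 0 came back as whole fragments (within 0.05 of a fragment beyond rounding). Intervals on these values cover library spread and not other errors. Promoter and microRNA sequences came from RefSeq. Promoters matched for 9 of the 10 genes, all except AGO2.

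The 10 genes and the lists were chosen with earlier results of these data known. Besides the 10 genes, TNRC6B, TNRC6C and PRKRA were always named. From each list the rule named the 2 largest rises and 2 largest falls over both siRNAs that were called with all knockdown libraries on 1 side of Scramble, and for AGO2 the 3 most correlated genes. Alternatives were quantile normalization, median centring, a pseudocount of 0.1, no filter, 1 FPKM in every library, the compared libraries alone, a replicate block, voom on recovered fragments without and with that block, lowess adjustment for GC content, an FDR of 0.01, and leaving out each library. Same-numbered libraries did not deviate together (mean r = 0.0162 over 9 pairs, against -0.00808 over 18 others), so the numbers were not used as pairs.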

Additional observations from a re-analysis of the deposited data

Results flagged for a closer look

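AGO1 and AGO4 were called in opposite directions with the 2 siRNAs, and the direct test of the difference between the siRNAs was called for both. For AGO4, Si-KDM4C#2 minus Si-KDM4C#1 was 1.12 ± 0.07 in log2(FPKM + 1) (SE, limma adjusted p = 5.70e-07). For AGO1 it was -0.60 ± 0.07 (limma adjusted p = 5.30e-05). The AGO1 fall with Si-KDM4C#2 (limma adjusted p = 0.0188) was not called without Scramble replicate 1 or 2, without Si-KDM4C#2 replicate 1, or after GC adjustment (limma adjusted p = 0.0563 to 0.0757). Both siRNAs lowered KDM4C, to 24.3% and 6.11% of Scramble.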

How the results depend on the processing

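Over 20 alternatives, 760 of 800 values of the 10 genes kept their direction and their side of the threshold, 21 lost and 6 gained a call, and 13 changed sign, none of these called in both settings. DICER1 with Si-KDM4C#2 moved from 0.03 to -0.071 (quantile normalization), -0.014 (median centring), -0.029 (voom), -0.030 (voom with the replicate block), and -0.036 to 0.083 with a library left out, the former without Scramble replicate 3. TARBP2 between the siRNAs moved from 0.06 to -0.00759 (quantile normalization), -0.054 (median centring), -0.063 (voom) and -0.060 (voom with the replicate block). DGCR8 and TARBP2 with Si-KDM4C#1 went to -0.057 and -0.00129 under GC adjustment, and AGO2 over both siRNAs to -0.049 under quantile normalization. The number of genes past a 2-fold change with Si-KDM4C#1 was 1, and 3 with a pseudocount of 0.1, with voom, and with voom and the replicate block (DICER1, DROSHA and AGO4), and 0 to 2 with a library left out (0 without Scramble replicate 1 or 2 or Si-KDM4C#1 replicate 3, and 2 without Scramble replicate 3). Under GC adjustment, and also under median centring, it was 1, DROSHA in place of DICER1. Between the siRNAs it was 2, and 0 under quantile normalization, 1 under median centring, 1 under GC adjustment, and 1 to 2 with a library left out (1 without Si-KDM4C#1 replicate 3). Called genes over both siRNAs went from 8 to 5 under GC adjustment. With the replicate block 8, 9, 8 and 8 genes were called in the 4 comparisons, as without it. The causes were not tested. The 95% intervals of DICER1 and DROSHA with Si-KDM4C#1, and of DICER1 and AGO4 between the siRNAs, hold a 2-fold change. At 842 fragments AGO4 with Si-KDM4C#1 had the fewest counts behind a group.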
